A study of Mus musculus with 10 samples.

Results

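Collagen genes were examined in CT26 tumors that were resected before immunotherapy. The set holds every deposited gene whose name has the form of a collagen chain (Col, a number, a, a number), which gave 44 of the 36009 genes in the count table. Of these, 32 averaged at least 0.5 CPM (the count relative to the library total, times 1e+06) and were compared by response, and 12 fell below that level and are listed as not detected. The CT26 line derives from a mouse colorectal carcinoma, and its tumors grew subcutaneously in female BALB/c mice of WT genotype. The resected piece was sequenced as polyA RNA before a hydrogel loaded with poly(I:C), a synthetic double-stranded RNA, was applied to the residual tumor, so all 10 libraries are untreated. Mice were later assigned by tumor outgrowth to responders (6 tumors) or non-responders (4 tumors), and the comparison asks whether collagen expression before treatment differed between them. Tumors are numbered within each group (R1 to R6 and NR1 to NR4). Each tumor came from its own mouse, the experiment was performed once with a single transplanted line, and the age of the mice was not given for each sample. Library totals were 29065126 to 38042544 counts in responders and 23374649 to 32986456 in non-responders.

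Collagens are the main structural proteins of the extracellular matrix. Each molecule is a helix of 3 chains, which come from a single gene in some types and from several genes in others. Where a type combines chains of several genes, those genes are usually needed together. Fibrillar collagens (types I, III and V) form the tensile fibers of connective tissue and are made mostly by fibroblasts. Type IV collagen forms the sheet-like network of basement membranes under endothelium and epithelium, the multiplexins (types XV and XVIII) sit at or near basement membranes, and type VI collagen forms beaded filaments that link basement membranes with the surrounding matrix. In tumors, collagen is produced by stromal cells and by some malignant cells. In bulk RNA, fewer cells of a type and less RNA per cell cannot be told apart.

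The genes share an unusual exon structure, which varied between classes and between genes of a class. In the longest coding transcript of each gene in the GENCODE annotation of GRCm38, the 32 detected collagen genes had a median of 49 coding exons, against 6 over 22527 protein-coding genes. The collagen repeat is encoded by 9 bases, and 62.9% of 1439 internal coding exons of the detected genes had a length that is a multiple of 9, against 14.3% of 159247 internal coding exons of all genes. The 9 fibrillar genes stood at 84.1% of 510 exons, and 49.0% of their exons were exactly 54 bases long. In the 3 detected type IV genes, 43.8% of exons were multiples of 9 and 4.11% were 54 bases long. Among the detected fibril-associated genes, the share of multiples of 9 ran from 22.2% (Col12a1) to 75.4% (Col22a1). Counts per gene therefore summed over many short exons, except for the short-chain genes such as Col8a1, which has 2 coding exons.

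Several members are chromosomal neighbors. Col4a1 and Col4a2 lie head to head on chromosome 8 (GRCm38), transcribed in opposite directions from starts that overlap by 22 bases, so that the exons of both genes share those bases. The shared stretch, at chr8:11312805-11312826 in the RefSeq table for GRCm38.p6, is printed here because both genes differed between the groups. It is written on the strand of Col4a2, and capitals mark 1 match to GGGCGG, the motif of Sp1-like factors.
Col4a1 and Col4a2 shared start: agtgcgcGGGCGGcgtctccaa
Col6a2 and Col6a1 lie on the same strand of chromosome 10 with 85.2 kb between them, and Col18a1 lies a further 326 kb along the same strand. Col3a1 and Col5a2 are tail to tail on chromosome 1 with 24.6 kb between them.

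The sequence upstream of the annotated start is shown for 3 members, from the RefSeq promoter table for GRCm38.p6 and 5′ to 3′ on the strand of the gene. Col18a1 and Col10a1 were lower in responders, and Col3a1, the most abundant member, was not called. Capitals mark matches on either strand to the TATA motif, spelled TATAAA, to the motif bound by nuclear factor Y, spelled CCAAT, and to the Sp1 motif, spelled GGGCGG. The printed matches do not overlap each other. The windows end at the first annotated exon.
Col18a1 at chr10:77166549-77166780, minus strand: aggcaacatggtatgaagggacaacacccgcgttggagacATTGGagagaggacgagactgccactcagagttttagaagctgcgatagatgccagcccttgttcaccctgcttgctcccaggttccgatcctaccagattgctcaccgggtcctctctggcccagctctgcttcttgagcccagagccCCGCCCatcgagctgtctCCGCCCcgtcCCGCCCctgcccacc
Col10a1 at chr10:34389731-34389980, plus strand: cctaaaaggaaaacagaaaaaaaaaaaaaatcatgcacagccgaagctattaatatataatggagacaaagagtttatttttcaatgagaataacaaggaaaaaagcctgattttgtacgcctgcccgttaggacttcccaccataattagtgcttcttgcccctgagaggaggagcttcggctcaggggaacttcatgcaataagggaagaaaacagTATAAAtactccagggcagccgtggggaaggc
Col3a1 at chr1:45311288-45311537, plus strand: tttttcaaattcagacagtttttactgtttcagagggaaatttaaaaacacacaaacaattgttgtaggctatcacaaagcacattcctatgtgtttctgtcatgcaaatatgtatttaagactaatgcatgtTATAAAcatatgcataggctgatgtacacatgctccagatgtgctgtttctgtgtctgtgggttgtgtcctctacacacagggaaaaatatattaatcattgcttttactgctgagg
Col10a1 and Col3a1 each held 1 match to the TATA motif, and Col18a1 held 3 matches to the Sp1 motif and 1 to the CCAAT letters. Over 32851 promoters, 12.4% held TATAAA, 33.8% held CCAAT and 32.7% held GGGCGG in the 250 bases before the start. The Col10a1 and Col3a1 windows had a GC content of 41.6% and 35.2%, against a median of 52.4% over all promoters. A called and an uncalled member thus both held a match to the TATA letters and had a low GC content. The match lay near the annotated start in Col10a1 and farther upstream in Col3a1. Promoter entries were found for 35 of the 44 member symbols, and Col18a1 has a second annotated start that is not shown.

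The chains of 1 collagen type stood at different levels. Levels in this paragraph are CPM per kb of summed annotated exon, averaged over the 10 tumors, which understates genes with many unused exons. Col3a1 (chain of type III collagen) was highest at 454, followed by Col1a2 (328) and Col6a1 (204). Col1a1, which supplies the alpha-1 chain of type I collagen, was at 134, well below its partner Col1a2. After these came Col4a1 (83.7), Col6a2 (78.4), Col16a1 (66.9), Col18a1 (53.0), Col5a1 (39.5), Col4a2 (39.5), Col8a1 (32.8) and Col6a3 (30.5). Col5a2, Col5a3, Col12a1, Col4a5 and Col15a1 ranged from 16.5 to 6.65, and the 15 genes below them ranged from 1.48 (Col10a1) to 0.0573 (Col22a1). Of the 31 pairs of neighbors in this order, 3 were separate in both groups of tumors (Col6a3 above Col5a2, Col15a1 above Col10a1 and Col24a1 above Col17a1), 13 in 1 group, and 15 overlapped in both, among them Col5a1 and Col4a2.

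**Figure D1:**
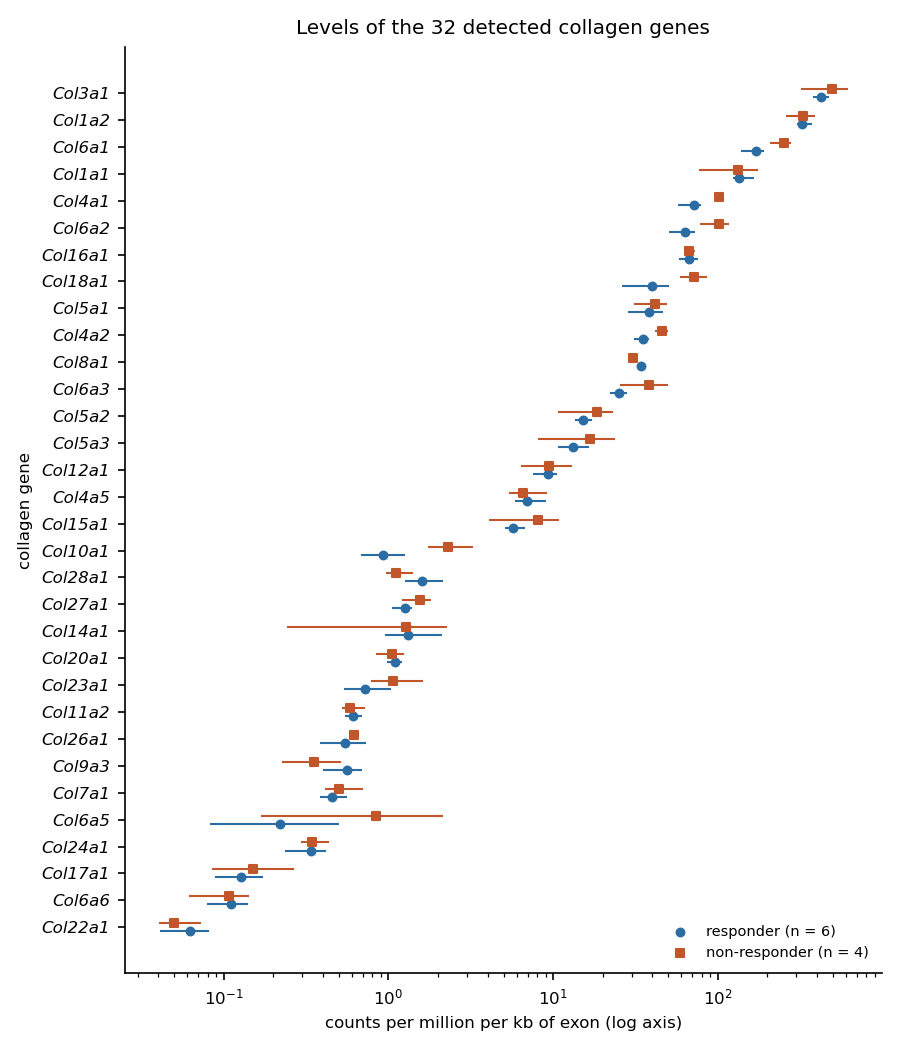
CPM per kb of exon (log axis) of the 32 detected collagen genes in responders (circles, n = 6) and non-responders (squares, n = 4), with lines from the lowest to the highest tumor. Levels run from Col3a1 (454 on average) to Col22a1 (0.0573), and the groups are separated for Col4a1, Col4a2, Col18a1, Col6a1, Col6a2 and Col10a1.

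The 12 members not detected were Col2a1, Col4a3, Col4a4, Col4a6, Col6a4, Col8a2, Col9a1, Col9a2, Col11a1, Col13a1, Col19a1 and Col25a1. Their counts in single tumors ranged from 0 to 27. They include the cartilage collagen Col2a1 (0 to 4 counts), the chains Col9a1 and Col9a2 of cartilage type IX collagen (0 counts in 9 and 8 of 10 tumors) and the kidney basement membrane chains Col4a3 and Col4a4. A count of 0 allows up to 3 counts, which is 0.0789 to 0.128 CPM in these libraries, so expression below that level was not detectable at this depth. Of 10 cartilage and bone markers, 9 were also below 0.5 CPM, and Acan, the main cartilage proteoglycan, had no counts in any tumor.

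Across the detected collagen genes, 7 were lower in responders and none was higher. Responders were compared with non-responders over all 16041 genes that passed a filter on low counts, with edgeR's quasi-likelihood test, Benjamini-Hochberg adjustment and a threshold of 0.05, and fold changes are responder over non-responder on the log2 scale. All 32 detected members passed the filter, as did 4 of the 12 not detected. The lower members were Col4a1, Col4a2, Col18a1, Col6a1, Col6a2, Col6a3 and Col10a1, which is 7 of 32, against 3.35% of all genes tested. None of the 32 was higher, against 4.71% of all genes. At an unadjusted p under 0.05, 11 of 32 were lower, against 13.5% of all genes, and 3 of 32 were higher (Col8a1, Col28a1 and Col9a3), against 15.6% of all genes. DESeq2, run as an alternative, called Col8a1 and Col28a1 higher (adjusted p = 0.0214 and 0.0207 by its Wald test). That test called 2580 genes in all, against 1293 by edgeR. The 6 lower members other than Col6a3 had groups that did not overlap, against 4.55% of all genes for this direction. For no detected member did all responders lie above all non-responders, against 5.84% of all genes. Of the 4 tested members below the detection level, only Col8a2 had this order (1.13, adjusted p = 0.0522, edgeR). Its estimate rested on 4 to 27 counts per tumor. The median log2 fold change was -0.16 over the 32 genes and -0.0086 over all genes. Negative estimates were found for 21 of the 32, against 8310 of the 16041 genes tested.

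By class, the calls fell on type IV (2 of 3 detected genes), the multiplexins (1 of 2), the type VI group (3 of 6) and the short-chain collagens (1 of 2). None of the 9 fibrillar and none of the 6 fibril-associated genes was called by edgeR, and 1 of each class had an unadjusted p under 0.05. Whether the classes differ from each other was not tested. All 7 calls were lost when R3, NR1 or NR4 was left out, with adjusted p (edgeR's quasi-likelihood test) between 0.0529 and 0.131 for these genes, and 14, 12 and 11 of the 32 then had an unadjusted p under 0.05. Over all genes 17, 16 and 0 calls were left, with 4051, 3654 and 4106 genes at an unadjusted p under 0.05. Without NR2, 13 of 32 were called, 11 of them lower, with Col3a1, Col5a2, Col15a1 and Col27a1 joining the lower group and Col8a1 and Col9a3 called higher. Calls over all genes also went up in that fit, to 1897 from 1293 (8.06% of those tested with all tumors in).

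**Figure D2:**
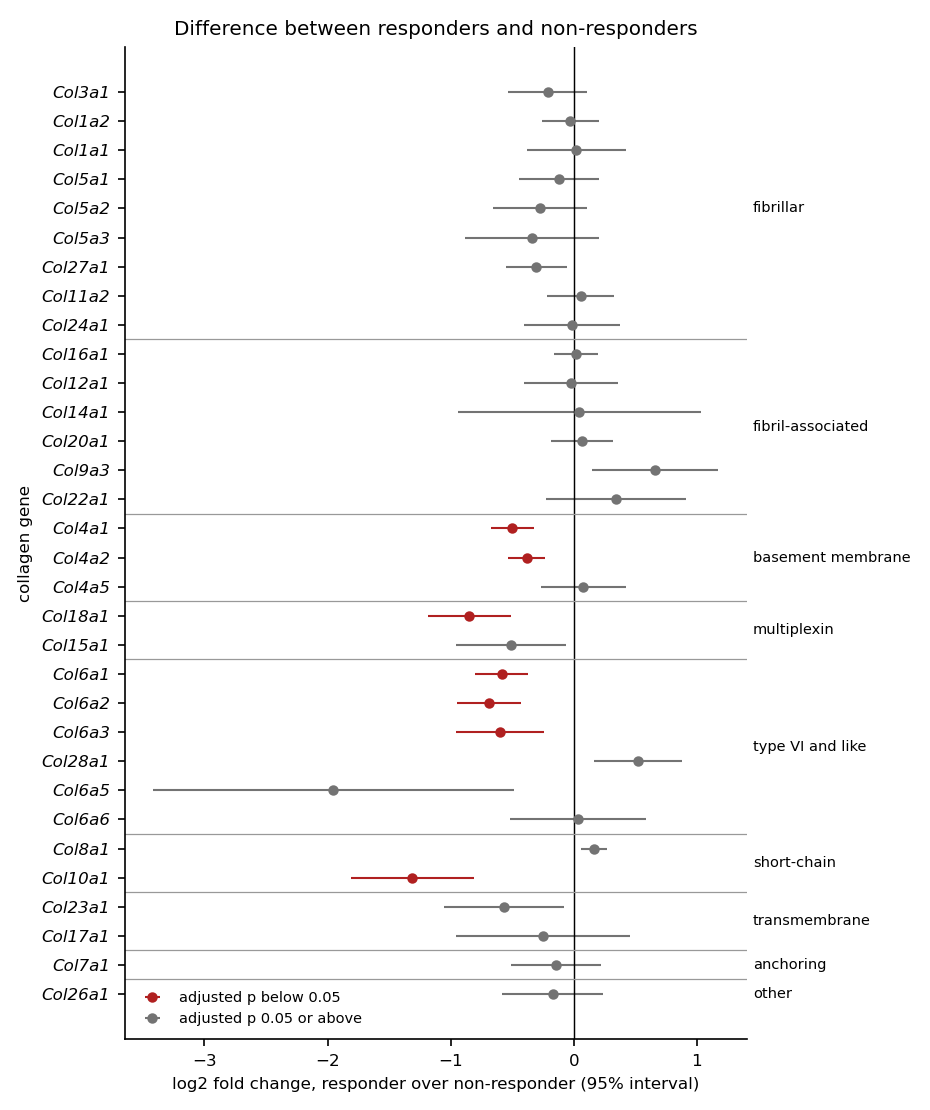
Log2 fold change of responders over non-responders for the 32 detected collagen genes by class, with genes with an adjusted p below 0.05 in red. The 95% intervals were derived from the F statistic of edgeR's test. The 7 red genes lie to the left of 0, from -0.38 (Col4a2) to -1.31 (Col10a1), and the intervals of Col1a1, Col1a2 and Col3a1 cover 0.

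Both ubiquitous chains of type IV collagen were lower in responders. Col4a1 encodes the alpha-1 chain, and its normalized expression was 378 CPM in the lowest responder, 488 in the median and 522 in the highest, while non-responders stood at 678 (NR1), 658 (NR2), 662 (NR3) and 687 (NR4) CPM. All 6 responders lay below all 4 non-responders, and the non-responders lay close together. The fold change was -0.50 (SE 0.08, adjusted p = 0.0207, edgeR). Col4a2, the alpha-2 chain that pairs with it, was at 200, 231 and 246 CPM (lowest, median, highest) in responders and at 321, 273, 270 and 319 CPM in NR1 to NR4. The groups did not overlap here either, with a fold change of -0.38 (SE 0.07, adjusted p = 0.0231). The ratio of Col4a1 to Col4a2 counts was between 1.88 and 2.32 in responders and between 2.11 and 2.45 in non-responders, ranges that overlapped. Col4a5, a chain of a second type IV network, lies on chromosome X and had a fold change of 0.08 (95% interval -0.27 to 0.43).

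Col18a1 was lower in responders by a larger factor. Col18a1 encodes a basement membrane proteoglycan whose C-terminal fragment is endostatin. It stood at 179 CPM in the lowest responder, 281 in the median and 344 in the highest, and at 589, 400, 483 and 491 CPM in NR1 to NR4. The groups did not overlap, R5 was the lowest tumor and NR1 the highest, and the fold change was -0.85 (SE 0.15, adjusted p = 0.0231), a mean 44.4% below non-responders. The other multiplexin, Col15a1, was at 30.7, 33.5 and 40.7 CPM (lowest, median, highest) in responders and at 65.2, 24.6, 52.2 and 53.4 CPM in NR1 to NR4. Here NR2 was the lowest of all 10 tumors and the other 3 non-responders the highest, and the difference did not pass the threshold (-0.51, adjusted p = 0.124). Without NR2 the fold change of Col15a1 was -0.73 (adjusted p = 0.0110). Col15a1 is named here after its values were seen.

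The 3 main chains of type VI collagen were also lower. Col6a1 was at 572 CPM in the lowest responder, 705 in the median and 784 in the highest, and at 1149, 856, 1023 and 1145 CPM in NR1 to NR4. The groups did not overlap, and the fold change was -0.58 (SE 0.10, adjusted p = 0.0221). Col6a2 stood at 303, 386 and 438 CPM in responders (lowest, median, highest) and at 702, 470, 575 and 696 CPM in NR1 to NR4, again without overlap, with a fold change of -0.69 (SE 0.12, adjusted p = 0.0222). Col6a3, the long chain, was at 239, 277 and 306 CPM in responders and at 544, 275, 490 and 355 CPM in NR1 to NR4. For Col6a3 NR2 fell inside the responder range and the other 3 non-responders lay above it. Its call (-0.60, SE 0.16, adjusted p = 0.0470) was the weakest of the 7, and with 1 tumor left out at a time it was kept in the fit without NR2 and in none of the other 9.

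The other detected members of the type VI group were not called. Col6a5 was at 0.766, 1.73 and 4.65 CPM in responders (lowest, median, highest) and at 1.78, 7.95, 1.56 and 19.9 CPM in NR1 to NR4. NR2 and NR4 were the 2 highest tumors, NR1 and NR3 lay inside the responder range, and the estimate was -1.95 (adjusted p = 0.0851, 95% interval -3.42 to -0.49). Col6a6 was near 1 CPM in both groups, with a fold change of 0.04. Col28a1, a related chain found around peripheral nerve, was at 5.35, 6.68 and 9.05 CPM in responders and at 5.93, 4.07, 4.51 and 4.28 CPM in NR1 to NR4. Its difference of 0.52 (SE 0.16) missed the threshold (adjusted p = 0.0652), with NR1 inside the responder range. Col6a5, Col6a6 and Col6a4 lie in tandem on chromosome 9, apart from Col6a1 and Col6a2 on chromosome 10.

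The 2 detected short-chain collagens had estimates of opposite sign, and 1 of them passed the test. Col10a1, a collagen of hypertrophic cartilage that is also expressed in tumor stroma, was at 2.13, 2.61 and 3.97 CPM in responders (lowest, median, highest) and at 10.3, 5.60, 7.67 and 5.46 CPM in NR1 to NR4. The groups did not overlap, and the fold change of -1.31 (SE 0.23, adjusted p = 0.0229) was the most negative of the 7 calls. It rested on 74 to 254 counts per tumor, and 18 bases of its exons are shared with Nt5dc1 on the opposite strand, so reads there could belong to either gene. Col8a1, a collagen of vascular and subendothelial matrix, was at 166, 175 and 185 CPM in responders and at 152, 167, 161 and 145 CPM in NR1 to NR4. NR2 lay just above the lowest responder, and the difference of 0.16 (SE 0.05) had an adjusted p of 0.0607. Cartilage markers were near 0 in both groups, as given above.

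**Figure D3:**
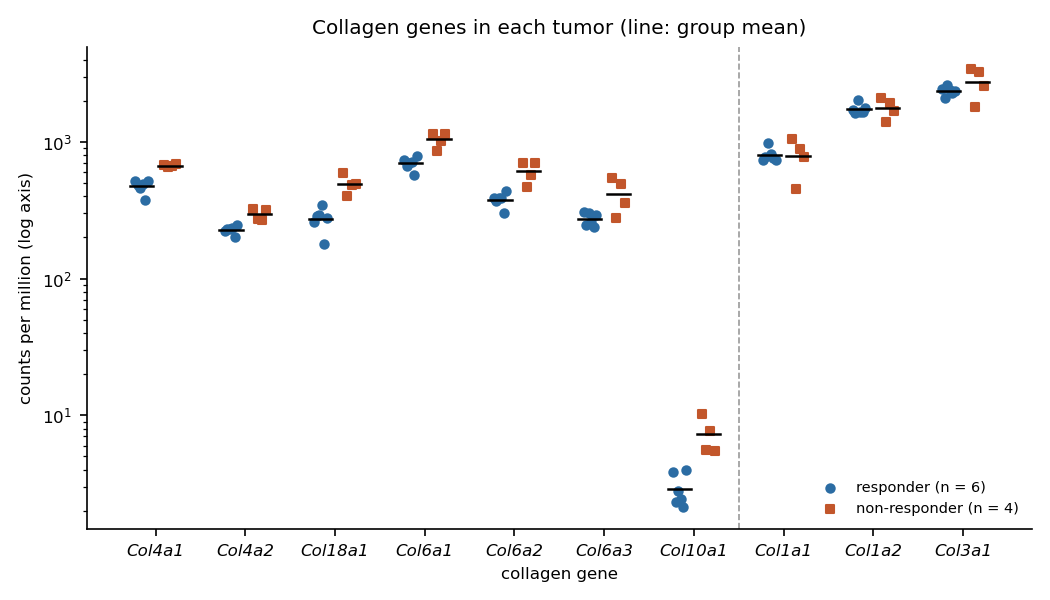
CPM (log axis) in each responder (circles, n = 6) and non-responder (squares, n = 4) for the 7 called collagen genes, left of the dashed line, and for Col1a1, Col1a2 and Col3a1, right of it, with the group mean as a line. All responders lie below all non-responders for 6 of the 7 called genes, and NR2 is the lowest of the 10 tumors for Col1a1, Col1a2 and Col3a1.

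The fibrillar collagens, which made up 61.2% of the collagen counts, did not pass the test. Col3a1 was at 2111 CPM in the lowest responder, 2387 in the median and 2630 in the highest, and at 3421, 1796, 3227 and 2561 CPM in NR1 to NR4. Non-responders lay on both sides of the responders, with NR1 and NR3 above and NR2 below, and the fold change was -0.21 (SE 0.15, adjusted p = 0.365). Col1a1 was at 732, 771 and 980 CPM in responders (lowest, median, highest) and at 1045, 453, 882 and 780 CPM in NR1 to NR4. Its fold change was 0.02, and the 95% interval of -0.38 to 0.42 leaves room for a difference of either sign. Col1a2 was at 1626, 1689 and 2011 CPM in responders and at 2082, 1391, 1934 and 1685 CPM in NR1 to NR4 (fold change -0.03, 95% interval -0.26 to 0.20). Type V collagen regulates the diameter of these fibers, and its chains Col5a1, Col5a2 and Col5a3 had fold changes of -0.12, -0.27 and -0.34 (adjusted p = 0.627, 0.324 and 0.389). Col27a1, Col11a2 and Col24a1 were below 14 CPM in every tumor, with fold changes of -0.30, 0.06 and -0.01.

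Fibril-associated collagens, which sit on the surface of fibers, gave no call. Col16a1, the highest of them, was at 302, 359 and 394 CPM in responders (lowest, median, highest) and at 378, 325, 330 and 352 CPM in NR1 to NR4. These ranges lay on top of each other (0.02, 95% interval -0.16 to 0.19). Col9a3 was at 1.22, 1.72 and 2.09 CPM in responders and at 0.686, 1.57, 1.04 and 1.03 CPM in NR1 to NR4, with only NR2 inside the responder range and an adjusted p of 0.0906. Col9a3 shares 234 exonic bases with the antisense gene Tcfl5, whose own level was 0.0333 CPM. Col12a1, Col20a1 and Col22a1 had fold changes of -0.02, 0.07 and 0.34 and Col14a1 one of 0.05.

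In the remaining classes no gene was called. Col23a1, a transmembrane collagen, was at 3.06, 3.72 and 5.85 CPM in responders (lowest, median, highest) and at 9.12, 4.44, 5.42 and 5.04 CPM in NR1 to NR4, with NR1 alone above the responder range (-0.57, adjusted p = 0.120). Col7a1 forms the anchoring fibrils that hold epidermis to dermis, and it was at 3.53, 4.10 and 5.15 CPM in responders and at 4.36, 6.46, 3.82 and 3.89 CPM in NR1 to NR4. Col26a1 was at 1.07, 1.42 and 2.04 CPM in responders and at 1.74, 1.64, 1.82 and 1.66 CPM in NR1 to NR4. For Col7a1 NR2 was the highest of the 10 tumors, and for Col26a1 the 4 non-responders lay inside the responder range. Col17a1, the transmembrane collagen of keratinocyte hemidesmosomes, was at 0.848, 1.49, 0.477 and 0.543 CPM in NR1 to NR4 and at no more than 0.965 CPM in responders. NR2 was again the highest tumor for Col17a1, and it also held 3.10 CPM of Krt5 and 2.17 CPM of Krt14, keratins of the basal epidermis, which did not exceed 0.0666 CPM in the other tumors. Of the other 6 keratinocyte markers listed, Dsg3 was also highest in NR2 (0.896 CPM, at most 0.0807 elsewhere), while Krt10 (2.95 CPM) and Trp63 (0.971 CPM) in NR2 lay inside the responder range, and Krt1, Lor and Krtdap were below 0.05 CPM in every tumor. Whether skin in that piece has a part in its Col7a1 and Col17a1 levels was not tested. Col17a1 and these keratinocyte markers are named after their values were seen.

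The same tumors recur across members. Of the 32 detected genes, NR2 was the lowest non-responder for 22, including 8 of 9 fibrillar genes, and NR1 was the highest for 17. Among responders, R5 was the lowest for all 7 called genes and for 12 of the 32. The SD of log2 CPM was larger in non-responders than in responders for 26 of 32 collagen genes (81.2%), against 58.3% of all genes tested. The median SD was 0.35 in non-responders and 0.19 in responders for collagen genes, against 0.15 and 0.13 over all genes.

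**Figure D4:**
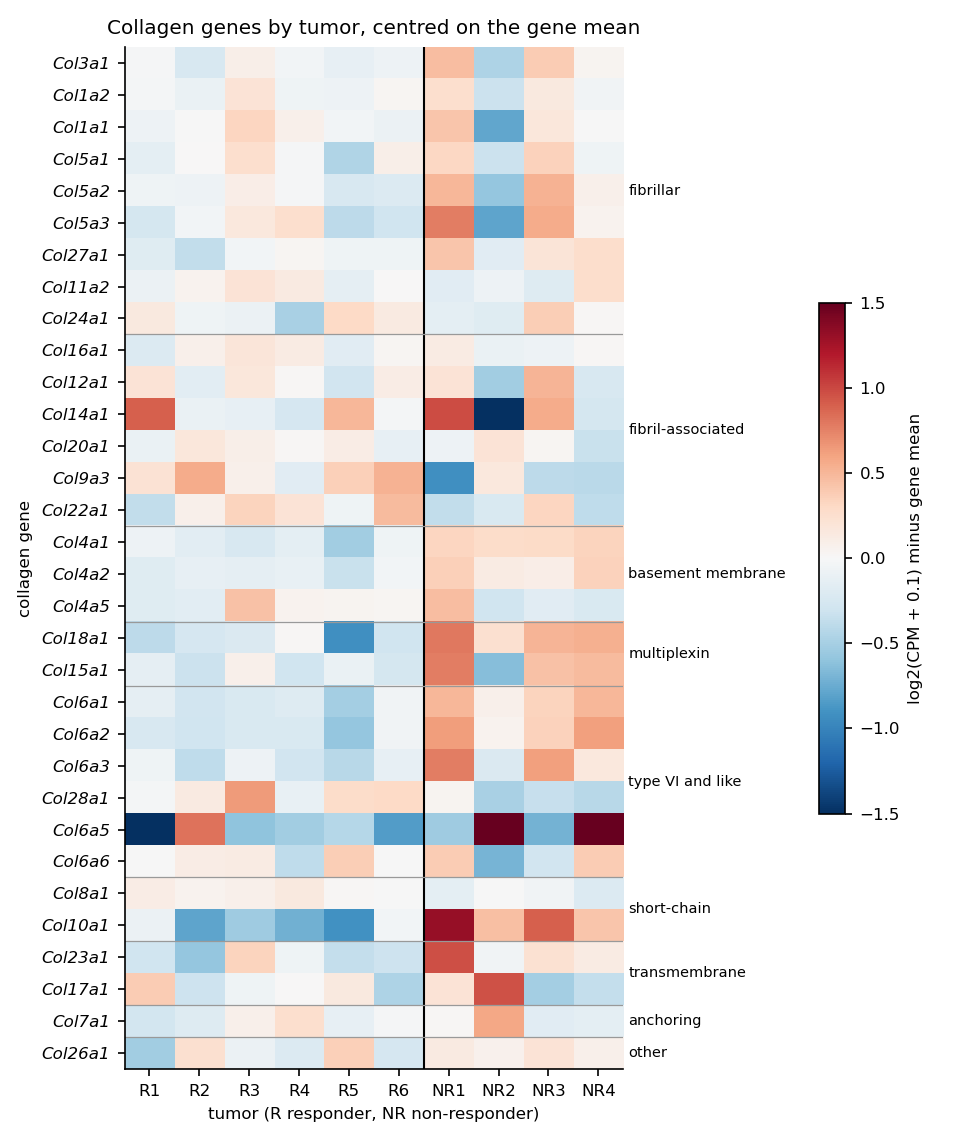
Log2(CPM + 0.1) of the 32 detected collagen genes in each tumor minus the mean of the gene over the 10 tumors, with genes grouped by class and responders left of the line. NR2 is blue for most fibrillar genes and red for Col4a1, Col18a1 and Col6a5, while NR1 is red in most rows.

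Summed over the detected members, collagen took 0.765% to 0.944% of all counts in responders (median 0.853%) and 1.21%, 0.771%, 1.09% and 1.004% in NR1 to NR4. Only R5 lay below all non-responders, and NR2 lay at the level of R5. The mean was 0.851% ± 0.0609 (SD, n = 6) in responders and 1.02% ± 0.186 (SD, n = 4) in non-responders, a difference that is given without a test. Fibrillar genes took 0.543% ± 0.0427 and 0.590% ± 0.140 of counts, type VI group genes 0.136% ± 0.0139 and 0.208% ± 0.0334, type IV genes 0.0747% ± 0.00656 and 0.101% ± 0.00516, and multiplexins 0.0307% ± 0.00525 and 0.0539% ± 0.00926. For the type IV, type VI and multiplexin sums, all 6 responders lay below all 4 non-responders. These sums are made up mostly of called genes, so their separation restates those calls and is no separate result.

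Ratios between chains were compared within each tumor. The count ratio of Col6a1 to Col6a2 was 1.84 on geometric average in responders and 1.72 in non-responders, and the ratio of Col1a1 to Col1a2 was 0.460 and 0.431. Type I collagen holds more alpha-1 than alpha-2 chains, yet Col1a1 counts were below Col1a2 counts in 10 of 10 tumors. The ratios of Col3a1 to Col1a1 (2.97 and 3.53), Col5a1 to Col5a2 (3.16 and 2.94), Col4a1 to Col4a2 (2.09 and 2.28) and Col6a3 to Col6a1 (0.395 and 0.388) also had overlapping groups. A further 4 ratios were chosen after the values were seen. That of Col5a3 to Col5a1 (0.251 and 0.276) overlapped between the groups. The other 3 divide called genes by Col1a2, which was not called, so their separation restates those calls and is no separate result. Col6a1 counts were 0.346 to 0.439 of Col1a2 counts in responders and 0.529 to 0.680 in non-responders. Col4a1 counts were 0.229 to 0.301 of Col1a2 counts against 0.326 to 0.473, and Col18a1 counts were 0.109 to 0.206 against 0.250 to 0.291. Within NR2, whose Col1a2 was the lowest, these 3 ratios were inside the range of the other non-responders or above it.

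**Figure D5:**
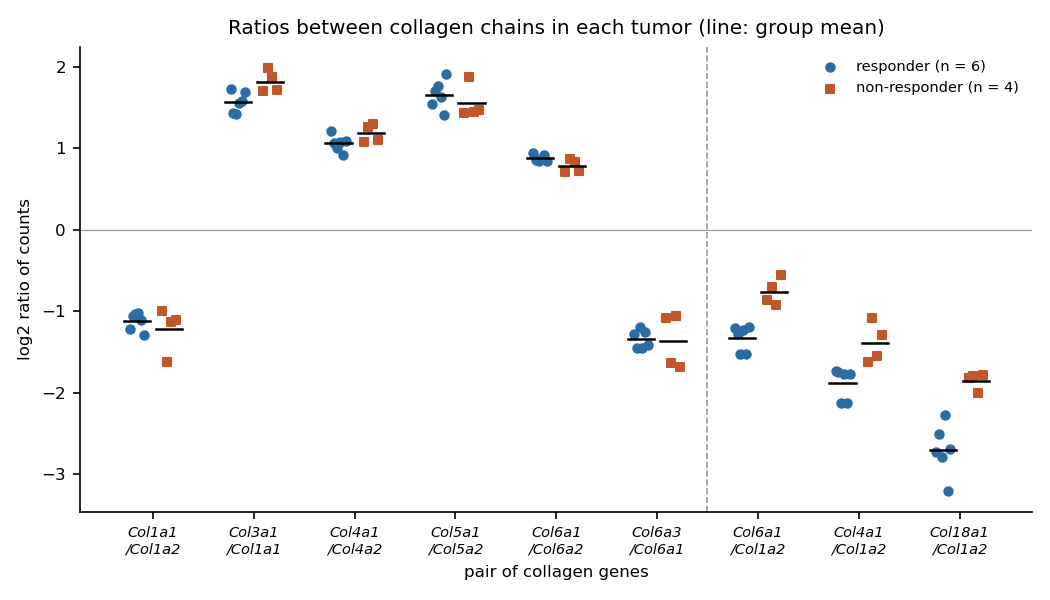
Log2 ratio of counts for pairs of collagen genes in each responder (circles, n = 6) and non-responder (squares, n = 4), with the group mean as a line. The 6 ratios left of the dashed line overlap between groups, and the 3 ratios to Col1a2 right of it, chosen after the values were seen, do not, with responders lower.

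Genes that modify, secrete, process, crosslink or bind collagen gave 6 lower and 1 higher call among 48 tested of 53 listed, which can be read against the 3.35% and 4.71% of all genes. Fkbp14, a prolyl isomerase of the endoplasmic reticulum that assists collagen folding, was at 12.5 ± 1.28 CPM (SD, n = 6) in responders and 16.7 ± 0.977 CPM (SD, n = 4) in non-responders (-0.42, adjusted p = 0.0264, edgeR). Adamts14, an aminopropeptidase of fibrillar procollagen, was at 50.5 ± 3.39 and 63.4 ± 8.59 CPM (-0.33, adjusted p = 0.0401). Fap, a stromal protease that cleaves denatured collagen, was at 15.4 ± 1.99 and 26.3 ± 3.68 CPM, with all responders below all non-responders (-0.78, adjusted p = 0.0207). Itga10, a collagen-binding integrin subunit, was at 13.8 ± 2.50 and 24.2 ± 5.07 CPM (-0.82, adjusted p = 0.0243). The other two lower calls were Pdia4 (-0.19) and Bmp1, the procollagen C-proteinase (-0.20). Lair1, an inhibitory collagen receptor of leukocytes, was the one higher gene, at 95.6 ± 11.1 CPM in responders and 59.8 ± 17.0 CPM in non-responders (0.68, adjusted p = 0.0372). The next genes in the higher direction did not pass, with Tmem38b at 0.29, P4ha3 at 0.25 and Tgm2 at 0.41 (adjusted p = 0.0788, 0.0974 and 0.188).

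By step, 0 of 14 genes of prolyl and lysyl hydroxylation were called (3 at an unadjusted p under 0.05), 2 of 8 of folding and secretion, 2 of 6 of propeptide cleavage, 0 of 8 of crosslinking and fibril assembly (1 at an unadjusted p under 0.05), and 3 of 12 receptors and uptake genes. At an unadjusted p under 0.05 by edgeR's test, 13.5% of all genes were lower and 15.6% higher. The edgeR fold changes had a median of -0.12 over the 48 genes, with 39 negative. Over all 16041 genes the median was -0.0086, with 8310 negative. The companion calls were also lost without R3, NR1 or NR4, where 16, 15 and 18 genes had an unadjusted p under 0.05, and 2 to 8 genes were called when any other tumor was left out. Over all genes, 4051, 3654 and 4106 had an unadjusted p under 0.05 without R3, NR1 and NR4.

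Markers of other cell types were counted in the same fit, and their part in the collagen differences was not tested. Their counts can be read against the 3.35% of all genes called lower and the 4.71% called higher, and against 13.5% and 15.6% at an unadjusted p under 0.05. Fibroblast markers summed to 1011 to 1118 CPM in responders and 1066 to 1294 CPM in non-responders, and 1 of 10, Pdgfrb, was called lower (-0.58, adjusted p = 0.0266). Endothelial markers summed to 122 to 193 CPM and 95.7 to 140 CPM, and 1 of 10, Eng, was called higher (0.64, adjusted p = 0.0266). Macrophage markers summed to 2653 to 3992 CPM and 1652 to 2405 CPM, with 6 of 8 called higher, and the pan-leukocyte gene Ptprc was higher by 0.60 (adjusted p = 0.0413). Skeletal muscle markers summed to 551 to 1622 CPM in responders and 419 to 563 CPM in non-responders, with 3 of 10 called higher, and adipocyte markers to 25.4 to 100.2 CPM and 12.5 to 37.0 CPM, with 1 of 8 tested called higher. No smooth muscle and pericyte marker was called among the 7 tested (80.1 to 129 CPM and 75.3 to 114 CPM), and Schwann cell markers summed to 10.1 to 12.6 CPM and 8.76 to 9.59 CPM, with 0 of 4 called and Sox10 under 0.5 CPM. At an unadjusted p under 0.05, 9 of 10 skeletal muscle markers, 8 of 8 adipocyte markers and 7 of 8 macrophage markers were higher, with median fold changes of 1.03, 2.05 and 0.61. At the same threshold 1 fibroblast marker was lower and 1 higher, 1 endothelial marker was higher, 1 smooth muscle and pericyte marker was lower and 2 higher, and 1 Schwann cell marker was higher. Of the 2 skin keratinocyte markers tested, Trp63 was higher in responders (1.24, unadjusted p = 0.00632, edgeR). Skin keratinocyte markers summed to 3.93 to 5.50 CPM in responders and to 3.21 to 10.1 CPM in non-responders, with NR2 highest and 6 of 8 markers under 0.5 CPM.

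Collagen levels were compared with marker levels in 3 relations across the 10 tumors, on log2 CPM, by 100000-resample permutation and with adjustment over the 3. Col1a1 and the mean of the fibroblast markers had r = 0.74 (permutation p = 0.00871, adjusted 0.0261) and rho = 0.58 (permutation p = 0.0882, adjusted 0.132). In responders alone (n = 6) it was 0.22 (exact permutation p = 0.762, adjusted 0.981), and without the outermost tumors, NR2 and NR4, it was 0.59 (exact permutation p = 0.123). Without NR2 alone r was 0.52 (permutation p = 0.157) and without NR4 alone 0.87 (permutation p = 0.00676), so NR2 was the single tumor whose removal took p above 0.05. Col4a1 and the mean of the endothelial markers ran in opposite directions, with r = -0.69 (permutation p = 0.0286, adjusted 0.0429) and rho = -0.59 (permutation p = 0.0827, adjusted 0.132), but the Col4a1 groups did not overlap, so this value mixes the group difference with the spread within groups. Within responders it was r = -0.84 (exact permutation p = 0.0444, adjusted 0.133) and rho = -0.77 (exact permutation p = 0.103). Without R5 and NR3, the tumors farthest from the median marker level, r was -0.40 (exact permutation p = 0.313). Leaving out the outermost tumors narrows the marker range, so this value cannot decide whether the relation holds. Col1a1 and Ptprc had r = -0.24 (permutation p = 0.482, adjusted 0.482) and rho = -0.25 (permutation p = 0.492, adjusted 0.492), with r = 0.02 within responders (exact permutation p = 0.981) and 0.16 without NR1 and R5 (exact permutation p = 0.706).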

How the data were processed

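PolyA RNA from 10 CT26 tumors was sequenced by the authors (6 responders, 4 non-responders, grouped by the response given in the labels). The authors checked reads with FastQC, pseudoaligned them to mouse transcripts (mm10, GRCm38) with kallisto and summed transcripts to genes with tximport. The deposited table holds expected counts per gene, of which 45.1% are fractional, with no scaling to depth. Strand setting, annotation release and tximport scaling were not given in the sources used here, and reads shared by genes are split by estimation. Rows without a gene name (9633, with 1.04% to 1.23% of counts) stayed in library sizes and tests.

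Counts were rounded and tested in R 4.3.3 with edgeR 4.0.16 (filterByExpr with a minimum count of 10 and minimum total of 15, TMM, glmQLFit and glmQLFTest, two-sided, Benjamini-Hochberg over all genes, threshold 0.05). CPM uses TMM-scaled totals, and log2 CPM a prior count of 2. Detection used counts over plain totals. Permutations and ratios were computed in Python 3.11.15 with SciPy 1.17.1. Exon structure and coordinates came from GENCODE on GRCm38, in which all 44 members were found. Alternatives were DESeq2 1.42.0 (size factors and Wald test), limma 3.58.1 voom, totals without TMM, no count filter, other detection minimums, other forms of the share, ratios and correlations, and leaving out each tumor. Leaving out NR2 and NR4 together was added after seeing the data. No batch was given in the labels.

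Members and lists were chosen with earlier results of these data known. Values by tumor are given for the called members (up to 10), for the 3 members with the smallest p per direction and for the member with most CPM per kb in each class, and for companion genes the 4 with the smallest p per direction. Col1a1, Col1a2, Col6a5, Col15a1 and Col17a1 were added after their values were seen.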

Additional observations from a re-analysis of the deposited data

How the results depend on the processing

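Over the other normalizations, tests and detection minimums 6 to 9 of the 32 collagen genes were called, with 931 to 2580 calls over all genes. Leaving out 1 tumor at a time gave 0 to 13 collagen calls, with 0 to 1897 over all genes. The main fit had 7 collagen calls and 1293 over all genes. With NR2 and NR4 both left out, a setting chosen after seeing the data, 11 were called, with 553 calls over all genes in place of 1293. For the companion genes DESeq2's Wald test called 13 in place of 7 (2580 over all genes in place of 1293), and leaving out 1 tumor gave 0 to 8. The 7 called members kept a negative fold change in each of the 16 alternative fits, with Col4a1 between -0.53 and -0.44 and Col10a1 between -1.43 and -1.09 when 1 tumor was left out. The sign of Col16a1 (0.02) turned in the fits without R3, NR2 or NR3, between -0.021 and 0.065 over single tumors left out, and was -0.015 without NR2 and NR4. Col7a1 (-0.14) ranged from -0.22 to 0.062 (without NR2) over single tumors left out and was 0.037 without both. The correlation of Col1a1 with fibroblast markers ranged from 0.52 (without NR2) to 0.87, that of Col4a1 with endothelial markers from -0.94 to -0.50 (without R5), with p above 0.05 also without NR1, NR2 or NR3, and that of Col1a1 with Ptprc from -0.51 to 0.12 (without NR1). The group difference in total collagen share, -0.168 percentage points, ranged from -0.251 to -0.104 with 1 tumor left out at a time. The group difference in log2 ratio kept its sign over single tumors left out for Col3a1 to Col1a1, Col4a1 to Col4a2, Col5a1 to Col5a2 and Col6a1 to Col6a2. The small group difference in log2 ratio changed sign for Col1a1 to Col1a2 (0.092, and -0.042 without NR2) and for Col6a3 to Col6a1 (0.024, and -0.0044, -0.066 and -0.083 without R3, NR2 and NR4). Class sums and ratios to Col1a2 were not recomputed. The cause of these changes was not tested. No paired analysis was possible because each tumor came from its own mouse and each mouse was assigned to a single response group. Depth limits the 12 members below 0.5 CPM, which had at most 27 counts in a tumor.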
